A study of Drosophila melanogaster with 2 samples.

Results

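miR-263a, miR-263b, miR-279 and miR-996 are 4 microRNA hairpins of Drosophila melanogaster with described roles in sense organs. Their products were chosen by name: every mature product of these hairpins in the count tables was taken, whatever its value. This gave 8 products, the 5p and the 3p arm of each hairpin, of the 240 known mature sequences listed in at least 1 library. All 8 were listed in both libraries, and 6 of them had at least 100 reads over both libraries, the minimum for comparison. miR-279-5p and miR-263b-3p had fewer and are given by their counts.

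The small RNA came from heads of Canton-S females, a wild-type laboratory strain, adults of 3 to 5 days. The control flies were kept in ethanol-free air for 45 minutes. The ethanol flies breathed ethanol-saturated air for 15 minutes, by which time every fly was sedated, and then ethanol-free air for 30 minutes. There is 1 library per group, each from the pooled heads of about 180 flies, so no value has a replicate, no p-value is given, and a difference between libraries cannot be told apart from a difference between treatments.

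A microRNA is cut from a hairpin as a duplex of a 5p and a 3p strand. One strand is usually kept in an Argonaute protein, where its seed, bases 2 to 8, pairs with sites in messenger RNAs and lowers their output, while the other strand is mostly degraded. In the fly, miR-263a and miR-263b protect the progenitors of the bristles between the facets of the eye from cell death by limiting the pro-apoptotic gene hid, and the mir-263a gene is also known as bereft, after the bristles its mutants lose. miR-279 prevents extra carbon dioxide sensing neurons from forming in the maxillary palp by repressing nerfin-1, and it acts in circadian behaviour through the JAK/STAT ligand Upd. miR-996 is its sister, and the pair can stand in for each other in sense organ and olfactory development.

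The mature sequences of the 4 more abundant arms are shown first because the grouping into pairs rests on them. They are printed as deposited, with T for U and with bases 2 to 8 in capitals.
miR-263a-5p: gTTAATGGcactggaagaattcac
miR-263b-5p: cTTGGCACtgggagaattcac
miR-279-3p: tGACTAGAtccacactcattaa
miR-996-3p: tGACTAGAtttcatgctcgtct

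miR-279-3p and miR-996-3p had the same seed, with all 7 bases equal, and shared a run of 9 bases from their first base on. Outside it they diverged, so that 10 of 22 positions were equal. The miR-263 pair was alike in another way. As deposited, the sequences start at different points, and only 2 of the 7 bases of the seed were equal at the same positions. With miR-263a-5p read from 3 bases further in, 18 of 21 positions were equal, and 6 of the 7 bases of the seed. The counts of the pair were therefore not those of products with the same seed as deposited. Calling them a family rests on the sequence shared once aligned, which includes 6 of the 7 bases of the seed. A longest run of each pair is printed in capitals in the next lines; the miR-263 pair has 2 runs of this length, and the other is the last 9 bases of both.
miR-263a-5p: gttaaTGGCACTGGaagaattcac
miR-263b-5p: ctTGGCACTGGgagaattcac
miR-279-3p: TGACTAGATccacactcattaa
miR-996-3p: TGACTAGATttcatgctcgtct

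These runs of 9 bases occurred, for each pair, in 2 of the 240 listed sequences, those of the pair. No other known product and no candidate miRNA named by the authors shared 12 bases in a row with any of the 8 products. Per the BDGP6 annotation and RefSeq, mir-263a (listed as mir-bft, FBgn0263107) lies on the minus strand of chromosome arm 2L in an exon of lncRNA:CR43314, the RNA also named pri-mir-263a. mir-263b (FBgn0262371) lies on the minus strand of 3L in an intron of meru, a gene of asymmetric division in sense organ precursors. mir-279 (FBgn0262448) and mir-996 (FBgn0262404) are neighbours on the plus strand of 3R, both in exons of lncRNA:CR31044, the RNA also named pri-mir-279_mir-996. Since the submitters' processing notes name BDGP5, an earlier build, no coordinates are given here.

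The control library held 13692046 reads of known miRNAs and the ethanol library 13128478. Levels are given as CPM, counts per 1000000 of these reads, and all intervals are exact 95% intervals for counting error alone, which treat PCR reads without molecular identifiers as if they were independent molecules. The neuronal miRNA hairpin mir-124 summed to 8150 control CPM and 4225 ethanol CPM, and the eye hairpins mir-7 and mir-210 to 5163 and 5472 CPM. The muscle hairpins mir-1 and mir-133 summed to 313766 and 301679 CPM. Those of the midgut, the early embryo and the gonads were each between 7.67 and 183 CPM in both libraries. In these pools of whole heads, fewer cells of a type and less RNA per cell cannot be told apart, and the part of cell makeup in the values below was not tested. The RNA integrity numbers were 6.8 (control) and 6.4 (ethanol), and their part was not tested either.

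Together the 8 products held 172898 control reads, 1.26% of all known miRNA reads (1.257 to 1.269%), and 197778 in the ethanol library, 1.51% (1.500 to 1.513%). miR-263a-5p alone accounted for 90880 and 119792 of them. Their levels spanned from 1.46 to 6637 CPM in the control library and from 1.45 to 9125 CPM in the ethanol library. The order was the same in both libraries. miR-263a-5p came first, followed by miR-279-3p, miR-996-3p, miR-996-5p, miR-263b-5p, miR-263a-3p, miR-279-5p and miR-263b-3p, and the counting intervals of neighbours in this order did not overlap in either library. Levels of different miRNAs also depend on how well a library preparation takes up each sequence, so the order is one of reads.

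**Figure D1:**
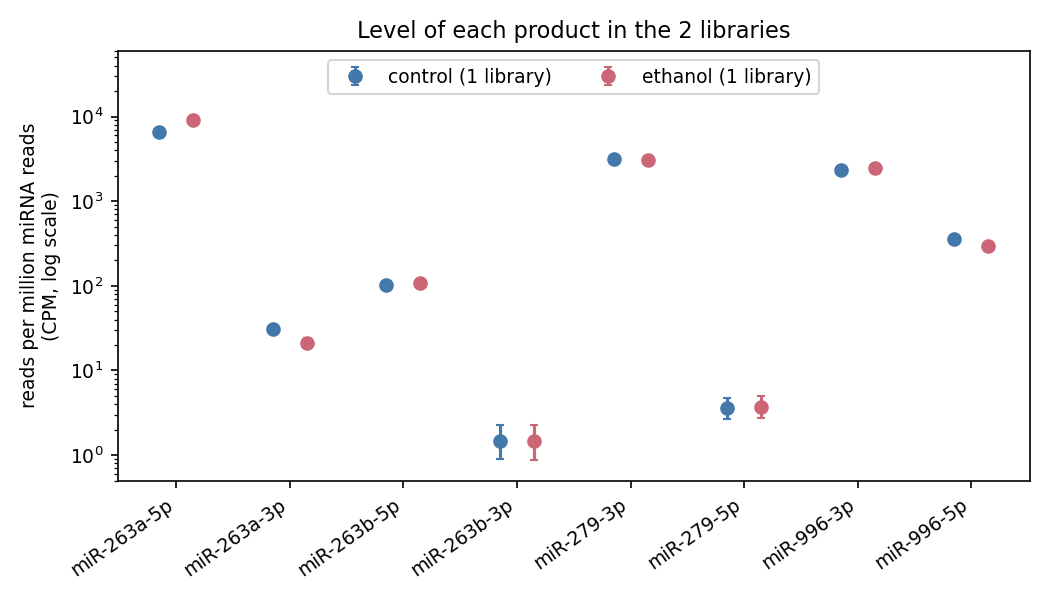
Level of the 8 products in each library, in CPM on a log scale, with 1 point per library and bars for the exact 95% counting interval, often smaller than the point. miR-263a-5p was the most abundant in both libraries (6637 CPM control, 9125 CPM ethanol), and the rarest, miR-263b-3p, was near 1.46 CPM.

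dme-miR-263a-5p, the arm whose target is hid, was higher in the ethanol library. It had 90880 reads (6637 CPM, 6594 to 6681) in the control, where it ranked 12 among all known miRNAs, and 119792 reads (9125 CPM, 9073 to 9176) in the ethanol library, where it ranked 10. The ratio of ethanol to control was 1.37 (1.36 to 1.39), a log2 ratio of 0.46. Of 168 compared products it had the ratio of rank 30 from the top, and of the 58 with at least 10000 reads that of rank 10. The interval of the ratio lay above 1 for 62 of the 168 products (36.9%), so that an interval above 1 did not set it apart.

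dme-miR-263b-5p, the relative of miR-263a-5p, had nearly the same level in both libraries. Its control count was 1409 reads (102.9 CPM, 97.6 to 108) and its ethanol count 1412 reads (107.6 CPM, 102 to 113), a ratio of 1.05 (0.97 to 1.13) whose interval held 1. There were 64.5 reads of miR-263a-5p per read of miR-263b-5p in the control, and with ethanol 84.8. This proportion was 1.32-fold higher in the ethanol library (1.22 to 1.42), whatever the scaling. The higher ratio was thus seen in miR-263a-5p and not, to the same size, in its relative.

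miR-279-3p and miR-996-3p, the products with the same seed, differed little between libraries. dme-miR-279-3p had 42972 control reads (3138 CPM, 3109 to 3168) and 40351 ethanol reads (3074 CPM, 3044 to 3104), and ranked 22 in both. Its ratio was 0.98 (0.97 to 0.99). dme-miR-996-3p had 32195 reads (2351 CPM, 2326 to 2377) and 31996 (2437 CPM, 2411 to 2464), a ratio of 1.04 (1.02 to 1.05), and ranked 28 and 27. At this depth the counting intervals exclude 1 for differences of a few percent, and for miR-996-3p the side of 1 depended on the scaling. Relative to all reads of the library (RPM), it had a ratio of 0.98 and miR-279-3p of 0.92.

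The share of each product in its seed family was also close in the libraries. Another listed miRNA has this seed, miR-286-3p of the early embryo cluster, with 21 control and 32 ethanol reads (ratio 1.59, 0.89 to 2.90). The family as a whole had 75188 and 72379 reads, a ratio of 1.004 (0.994 to 1.014). miR-279-3p made up 57.2% of it in the control (56.8 to 57.5%) and 55.7% in the ethanol library (55.4 to 56.1%), and miR-996-3p 42.8% and 44.2%. miR-286-3p made up 0.0279% and 0.0442%. Reads of miR-279-3p per read of miR-996-3p went from 1.33 to 1.26, a proportion 1.06-fold lower (1.04 to 1.08) in the ethanol library.

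The difference of their log2 ratios, 0.08, was the 7th smallest of 41 pairs of compared products with the same seed, among which the median difference was 0.31. Over all 14028 pairs of compared products the median difference was 0.46. These pairs share products and are not independent, and they are given as a description. After a straight line of the log2 ratio on guanine content was removed, the proportion of miR-279-3p to miR-996-3p was 0.82 of its control value, against 0.94 before. miR-279-3p held 9.09% guanine and miR-996-3p 18.2%, against a median of 22.9% over the 168 products, where Spearman's rho between guanine content and log2 ratio was -0.50.

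Of the 6 possible pairs of the more abundant arms, the 3 with miR-263a-5p differed most in the counts as deposited. Relative to miR-279-3p it was 1.404-fold higher (1.38 to 1.43) in the ethanol library, relative to miR-996-3p 1.33-fold higher (1.30 to 1.35), and relative to miR-263b-5p 1.32-fold higher, as given above. miR-263b-5p relative to miR-279-3p had a proportion of 1.07 (0.99 to 1.15) and relative to miR-996-3p of 1.01 (0.93 to 1.09), both intervals holding 1. The 3 products other than miR-263a-5p lay within 1.07-fold of each other. This grouping was lost with the line on guanine removed, where the proportion of miR-263b-5p to miR-279-3p was 1.45 and that of miR-263a-5p to miR-263b-5p 1.24.

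**Figure D2:**
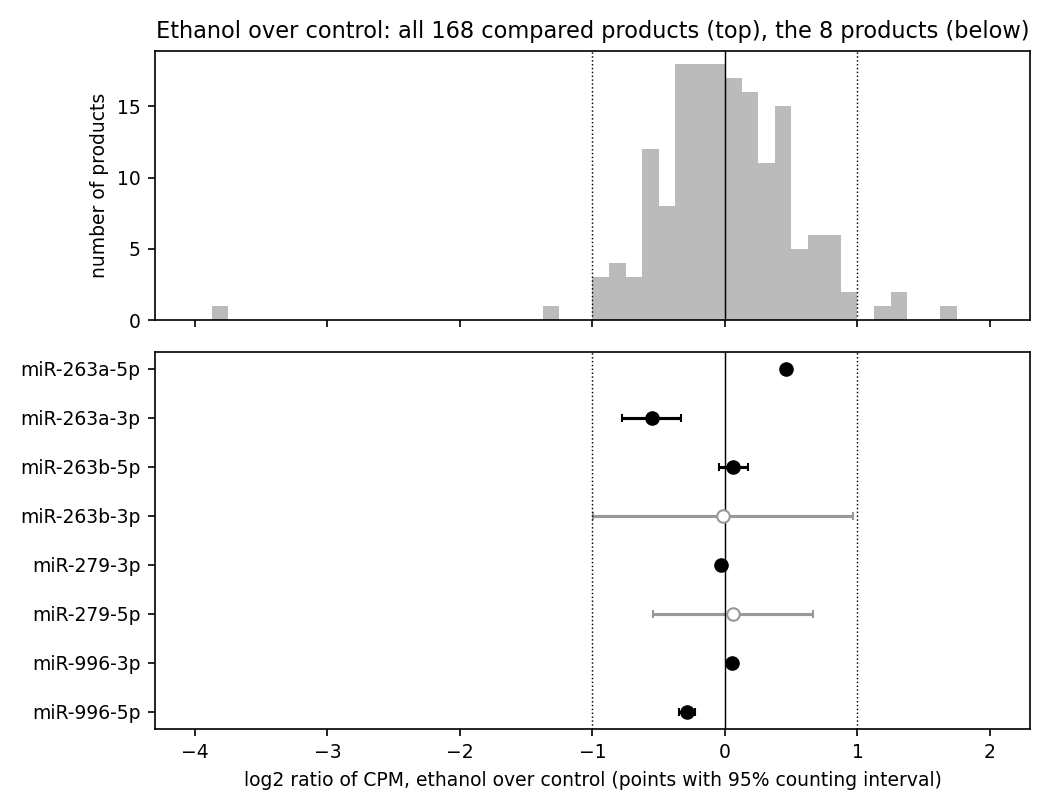
Log2 ratio of CPM, ethanol over control, with all 168 compared products as a histogram above and the 8 products below, where filled points are the 6 compared, open points those under 100 reads, and bars the exact 95% counting interval. Dotted lines mark 2-fold. miR-263a-5p lies at 0.46 and miR-263a-3p at -0.55, and all 8 points lie between the dotted lines.

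The rarer arms of mir-263a and mir-996 were lower in the ethanol library. These are the strands usually discarded, and no target role is given to them here. They are printed with bases 2 to 8 in capitals because their counts set the arm ratios that follow.
miR-263a-3p: cGTGATCTcttagtggcatcta
miR-996-5p: gCGAACATggatctagtgcacg

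dme-miR-263a-3p had 428 control reads (31.3 CPM, 28.4 to 34.4) and 280 ethanol reads (21.3 CPM, 18.9 to 23.98), and was 1.47-fold lower (1.26 to 1.71). Its ratio had rank 148 of 168. miR-996-5p had 4945 reads (361 CPM, 351 to 371) and 3879 (295 CPM, 286 to 305), and was 1.22-fold lower (1.17 to 1.28), at rank 129. It was the only rarer arm of the 4 hairpins with more than 1000 reads per library. miR-279-5p had 49 reads in each library, a ratio of 1.04 (0.69 to 1.58), and miR-263b-3p had 20 control and 19 ethanol reads, a ratio of 0.99 (0.50 to 1.96). The interval of miR-263b-3p holds the ratio seen in miR-263a-3p, so that a difference of this size was not detectable there.

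No member was called at 2-fold in either direction. Over all 168 compared products 2.38% were at least 2-fold higher and 1.19% at least 2-fold lower, so that none of 6 is a count near the background. The counting interval lay above 1 for 2 of the 6, miR-263a-5p and miR-996-3p, and below 1 for 3, miR-279-3p, miR-996-5p and miR-263a-3p, against 36.9% and 38.1% of all compared products. The median log2 ratio of the 6 was 0.01, with a range from -0.55 to 0.46. The median of all 168 was -0.02. The authors' deposited table marks 14 of 196 products as different, and none of the 8 is among them. The rule behind the mark is not known here, so a missing mark does not mean that the authors' test found no difference. In the authors' deposited table the log2 ratio of RPM was 0.38 for miR-263a-5p and -0.63 for miR-263a-3p.

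The arms of mir-263a lay on opposite sides of 1, and so its arm ratio differed more than either arm. The 5p arm had 212 reads per 3p read in the control library and 428 in the ethanol library, a 2.01-fold shift towards 5p (1.73 to 2.35). As a share, miR-263a-3p made up 0.469% (0.425 to 0.515%) of the hairpin's control reads and 0.233% (0.207 to 0.262%) of its ethanol reads. Since both arms are counted in the same library, the shift is free of the scaling. It was just past the threshold of 2, beside mir-125 just inside it at 1.91. Of 61 hairpins with both arms compared, 4 (6.56%) shifted at least 2-fold towards 5p and 7 (11.5%) towards 3p, and mir-263a had rank 4 towards 5p. The arms held 25% and 22.7% guanine, and with the line on guanine removed the shift was 2.09-fold.

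The arms of mir-996 shifted the other way and by less. The rarer arm, miR-996-5p, made up 13.3% of the hairpin's reads in the control (12.97 to 13.7%) and 10.8% in the ethanol library (10.5 to 11.1%), a 1.27-fold shift towards 3p (1.21 to 1.33). Its 5p arm held 31.8% guanine and its 3p arm 18.2%, and with the line on guanine removed the shift was 1.02-fold. In both hairpins the proportion of the more abundant arm was higher in the ethanol library. Among the 61 hairpins with both arms compared this went either way. The share of hairpins with such a shift was not counted, so it does not set these hairpins apart.

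For mir-279 and mir-263b the arm ratio had wide intervals. miR-279-5p made up 0.114% of its hairpin's control reads and 0.121% of its ethanol reads, an odds ratio of 1.06 (0.70 to 1.62). miR-263b-3p made up 1.400% and 1.33%, and the odds ratio of 5p to 3p was 1.05 (0.53 to 2.10), an interval that holds the shift seen in mir-263a. Among these 4 hairpins the share of the rarer arm thus ran from about 0.1% in mir-279 to over 10% in its neighbour mir-996.

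**Figure D3:**
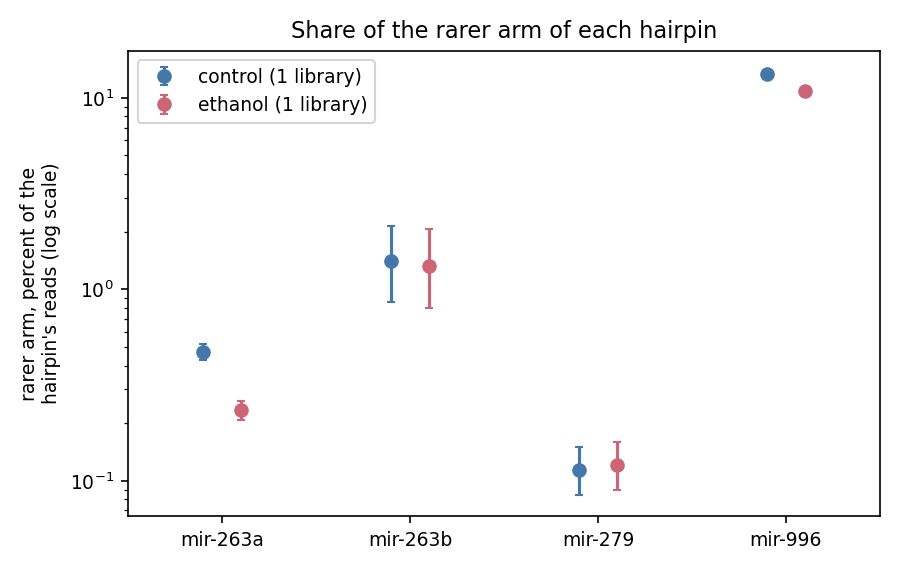
Reads of the rarer arm as a percentage of all reads of its hairpin, on a log scale, with 1 point per library and bars for the exact 95% counting interval. It was 0.469% (control) and 0.233% (ethanol) for mir-263a, 13.3% and 10.8% for mir-996, and the intervals of the libraries overlap for mir-263b and mir-279.

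**Figure D4:**
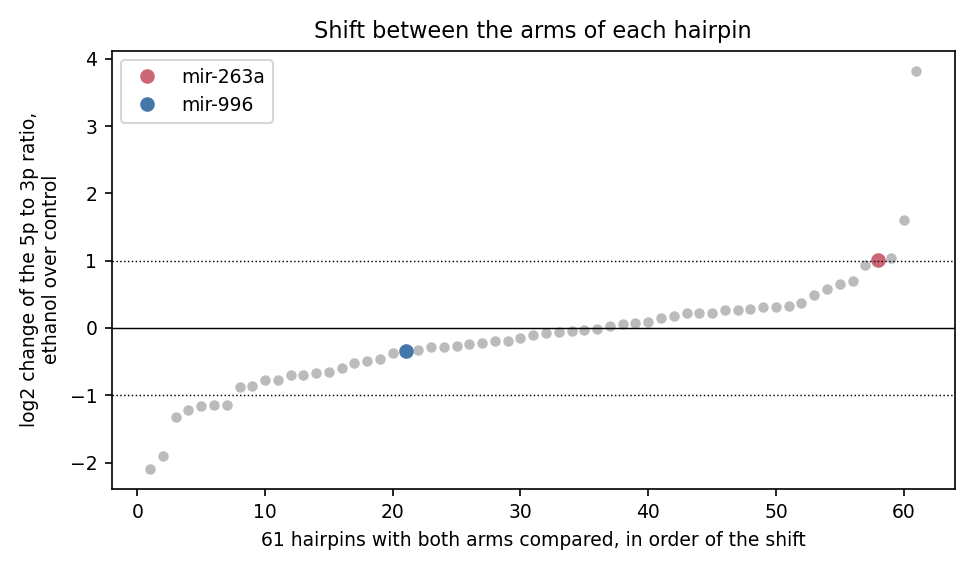
Log2 change of the 5p to 3p ratio, ethanol over control, for the 61 hairpins with both arms compared, in order, with dotted lines at 2-fold. mir-263a lies just past the upper line (2.01-fold) at rank 4 towards 5p, and mir-996 lies below 0, at rank 41.

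The products nearest to each member in level and ratio were found by the distance on the plane of control log2 CPM and ethanol log2 CPM, over these 2 libraries. For miR-263b-5p they were miR-965-3p (distance 0.13, with 1317 and 1328 reads) and miR-31b-5p (0.25). miR-996-3p lay nearest to miR-285-5p (0.13) and miR-995-3p (0.17), and miR-279-3p to miR-14-5p (0.25) and miR-285-3p (0.29). miR-996-5p was nearest to miR-993-5p (0.32) and miR-929-3p (0.39), and miR-263a-3p to miR-124-5p (0.26), with 507 and 264 reads, and miR-219-3p (0.33). miR-263a-5p had no product as close. The nearest were miR-10-3p at 0.72, with a ratio of 0.81, and miR-8-5p at 0.80, with a ratio of 1.12.

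Other miRNAs of sense organ and eye development had ratios from 1.04 to 1.52 in CPM. This list held mir-9a, which limits the number of sense organ precursors through senseless, mir-7, which promotes photoreceptor differentiation, and mir-210, which maintains photoreceptors. All 6 of their products were above 1 with intervals above 1, against 36.9% of all compared products, none reached 2-fold, and the median log2 ratio was 0.21. The 6 are both arms of 3 hairpins and so are not separate observations. The list was chosen with earlier results of these data known, and mir-7 and mir-210 are the eye hairpins already given above. miR-210-3p was below 1 when scaled by RPM or without the 4 most abundant miRNAs, and miR-7-3p with the line on guanine removed, which left 5 of 6 above 1 in each case. miR-210-3p, with the most reads, had 59960 and 59953 (ratio 1.04, 1.03 to 1.05), and miR-9a-3p lay farthest from 1, with 975 and 1425 reads (1.52, 1.404 to 1.66). The more abundant arms of the list had ratios from 1.04 to 1.17, below the 1.37 of miR-263a-5p.

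miRNAs with described cell death targets, like hid for miR-263a, lay on both sides. The list held bantam, which also limits hid, mir-14, which suppresses cell death, and the K-box hairpins mir-2a, mir-2b, mir-2c, mir-6, mir-11, mir-13a, mir-13b and mir-308, whose family has targets such as reaper and grim. Of its 23 listed products 19 were compared, and none of these came from mir-6, whose products had too few reads. The 19 lay above 1 in 5 cases and below 1 in 14, with a median log2 ratio of -0.27. Over all 168 compared products 82 lay above and 86 below 1. The more abundant arms of the list alone had 5 above and 4 below 1 and a median of 0.25. The interval excluded 1 on the high side for 5 products and on the low side for 10, against 36.9% and 38.1% of all compared products. None was at least 2-fold higher, against 2.38%, and 2 were at least 2-fold lower, against 1.19%. These 2 are themselves all of the 168 compared products that were at least 2-fold lower. miR-14-3p, with the most reads, was 1.21-fold lower (1.20 to 1.23). miR-308-3p, farthest from 1, went from 697 to 46 reads and was 14.5-fold lower (10.77 to 20.03). The other of the 2, miR-11-5p, went from 91 to 35 reads and was 2.49-fold lower (1.67 to 3.79). The opposite arms of these hairpins were not lower to this size. miR-308-5p had 316 and 295 reads, a ratio of 0.97 (0.83 to 1.14). miR-11-3p, the more abundant arm of mir-11, was higher, with 4231 and 6089 reads (1.50, 1.44 to 1.56). bantam-3p, a regulator of hid chosen here with its value known, went from 37159 to 25225 reads and was 1.41-fold lower (1.39 to 1.44). Of the same target, miR-263a-5p was 1.37-fold higher, and miR-263b-5p had a ratio of 1.05 (0.97 to 1.13), an interval that held 1.

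**Figure D5:**
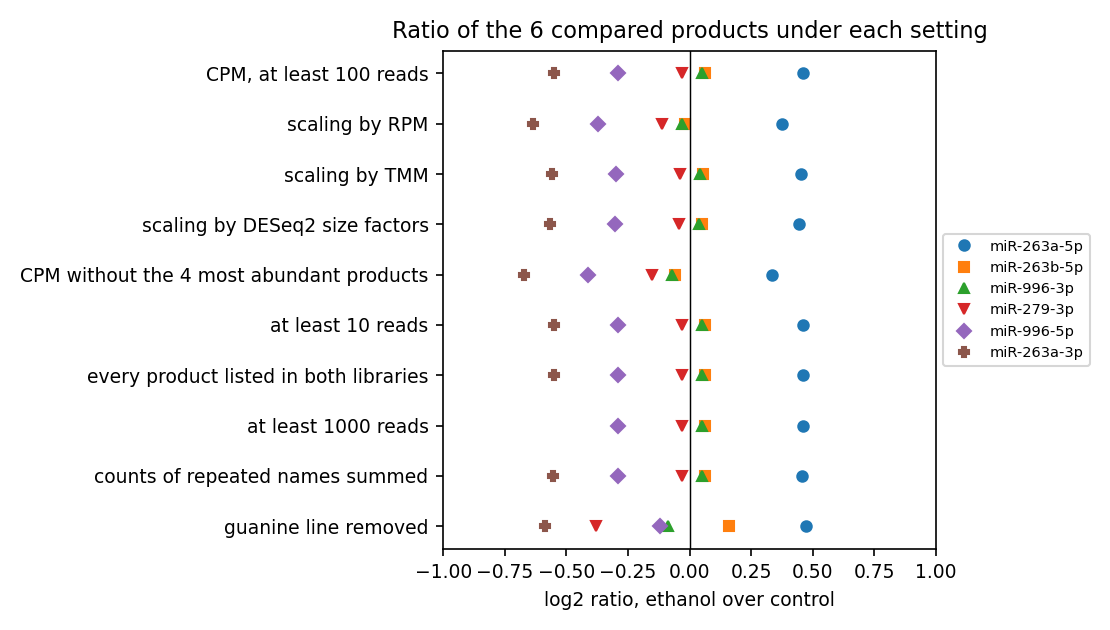
Log2 ratio, ethanol over control, of the 6 compared products under the CPM scaling and 9 alternatives. miR-263a-5p lies to the right and miR-263a-3p and miR-996-5p to the left of 0 wherever they were compared, while miR-996-3p and miR-263b-5p cross 0 under 3 and 2 of the alternatives. miR-263a-3p has no point at a minimum of 1000 reads.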

How the data were processed

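The authors deposited 1 table of read counts per library, with each product's mature sequence, count, total read number of the library (17337082 control, 17600983 ethanol) and RPM over that total. The submitters' processing notes name the build BDGP5; aligner, counting tool and the meaning of the total: not given in the sources used here. Products under 5 reads do not appear. A further deposited table gives the authors' log2 ratio of RPM and a p-value from an unnamed test, not printed here.

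For a name listed more than once the largest count was kept, and names of the same sequence and count were used once. Counts were scaled to CPM of known miRNA reads, and a product was compared at 100 reads or more in the sum of the libraries (168 products). Ratios have exact conditional binomial (Clopper-Pearson) 95% intervals, and arm or pair proportions exact conditional intervals of the odds ratio. A product was called at 2-fold. Python 3.11.15, SciPy 1.17.1, pandas 2.3.3 and numpy 2.4.6 were used, with scaling factors of edgeR 4.0.16 (TMM) and DESeq2 1.42.0 in R 4.3.3 as alternatives. The steps were tested on simulated data. Named products are the members, those sharing their seed, the 2 nearest to each, and 2 per list. The products miR-7-3p, miR-11-3p, miR-11-5p, miR-308-5p and bantam-3p and the hairpin mir-125 were added after their values were seen. The members, lists and rules were chosen with earlier results of these data known.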

Additional observations from a re-analysis of the deposited data

How the results depend on the processing

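No paired analysis was possible because each group has 1 library, and for the same reason no replicate could be left out. The member ratios, counts at 2-fold, pair proportions, arm ratios of mir-263a and mir-996 and list medians were computed under 9 alternatives; seed-family shares, ranks, nearest products and counts over hairpins were not. The ratio of miR-263a-5p stayed above 1 and that of miR-996-5p and miR-279-3p below 1 in all of them, as did that of miR-263a-3p in the 8 that keep it; a minimum of 1000 reads drops it and its arm ratio. No member reached 2-fold under any. Scaled by RPM, the ratio was 1.298 for miR-263a-5p, 0.925 for miR-279-3p, 0.773 for miR-996-5p and 0.979 for miR-996-3p, which changed side. With DESeq2 size factors miR-263a-5p had 1.361. Scaled without the 4 most abundant products, which shifts the median log2 ratio of all products by -0.12, the ratio was 1.263 for miR-263a-5p, 0.960 for miR-263b-5p, 0.900 for miR-279-3p, 0.752 for miR-996-5p and 0.952 for miR-996-3p, which again changed side. With the guanine line removed the ratio was 1.389 for miR-263a-5p, 0.769 for miR-279-3p, 0.921 for miR-996-5p and 0.940 for miR-996-3p, which changed side here too. In that setting the proportion of miR-279-3p to miR-996-3p was 0.818, of miR-263a-5p to miR-279-3p 1.807 and to miR-996-3p 1.478, of miR-263b-5p to miR-279-3p 1.453 and to miR-996-3p 1.189, and the shift of mir-996 towards 3p 1.021. The cause of these moves was not tested beyond the scaling itself. Over all products, 4 were at least 2-fold lower by RPM, and 5 without the 4 most abundant products. At a minimum of 10 reads, or with every product listed in both libraries, 7 were higher and 5 lower; at 1000 reads 2 were higher and 0 lower; with the guanine line removed 2 were higher. Depth limits miR-279-5p and miR-263b-3p, whose intervals span more than 2-fold.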
